A study of Mus musculus with 12 samples.

Results

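Immediate early genes are switched on within minutes of a signal at the cell surface, from promoters that are already accessible and without new protein synthesis. In T cells the signal is engagement of the T cell receptor, which acts through calcium and the ERK kinases on the factors SRF, CREB, MEF2 and NFAT bound near these genes. Their products are transcription factors with short-lived mRNAs. Nr4a1, Nr4a2 and Nr4a3 encode orphan nuclear receptors, Egr1, Egr2 and Egr3 encode zinc-finger factors, and Fos, Fosb, Jun and Junb encode subunits that pair up to form AP-1. These 10 genes were taken by name, out of 25793 genes in the count table. Of the 10, 4 (Egr1, Egr2, Fos and Junb) had enough counts to pass the filter that kept 7542 genes for testing across all genes. The other 6 lay near or at 0.

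RNA-seq was run on follicular helper T (Tfh)-type cells, CD4 T cells that carry the follicle-homing receptor CXCR5, to ask what PD-1, the inhibitory receptor that Pdcd1 encodes, does in them. All 12 libraries came from CXCR5hi GFP+ CD4+ OT-II cells of the C57BL/6 strain, whose transgenic receptor recognises an ovalbumin peptide. WT cells were Pdcd1+/+ (6 libraries) and KI cells were Pdcd1KI/KI (6 libraries), and the labels do not say what the knock-in allele changes. Cells of both genotypes had been transduced with GFP and transferred, with dsRed-expressing MD4 B cells specific for hen egg lysozyme, into B6 recipients. The recipients received HEL-OVA with LPS and alum under the skin, and on day 5 the OT-II cells were recovered from lymph nodes by sorting, in pools of 100 to 200 cells. Each library title carries 2 numbers, used here as names (WT 1-3 has first number 1 and second number 3), and 3 libraries of each genotype have first number 1 and 3 have first number 2. What the numbers stand for is not stated, nor whether libraries came from separate animals, so the p-values measure the spread between these libraries only.

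Promoter sequences, where these signalling factors bind, are shown for Fos and Junb, which passed the count filter, and for Nr4a1 and Jun, which were close to the detection limit. Each run covers 250 bases before and 50 bases after a RefSeq transcript start in build GRCm38.p6, which is not the mm9 build of the study, and reads along the gene's strand. Capitals mark TGACG, the core of the element that CREB binds, on either strand (CGTCA is the other strand). The windows lie at chr15:101266596-101266895 (Nr4a1, plus strand), chr12:85473640-85473939 (Fos, plus strand), chr4:95052173-95052472 (Jun, minus strand) and chr8:84978699-84978998 (Junb, minus strand).
Nr4a1: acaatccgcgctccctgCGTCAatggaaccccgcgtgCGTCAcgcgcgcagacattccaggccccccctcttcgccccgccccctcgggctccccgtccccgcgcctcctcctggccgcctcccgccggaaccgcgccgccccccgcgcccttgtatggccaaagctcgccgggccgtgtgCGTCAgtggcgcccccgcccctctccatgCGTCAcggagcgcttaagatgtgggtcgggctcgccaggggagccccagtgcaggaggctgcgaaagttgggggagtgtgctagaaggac
Fos: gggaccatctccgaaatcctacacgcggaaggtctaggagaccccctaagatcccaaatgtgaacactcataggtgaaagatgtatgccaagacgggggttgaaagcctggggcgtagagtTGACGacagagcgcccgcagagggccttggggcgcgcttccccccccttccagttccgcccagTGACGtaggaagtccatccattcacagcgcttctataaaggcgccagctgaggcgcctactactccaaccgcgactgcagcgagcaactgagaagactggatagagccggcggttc
Jun: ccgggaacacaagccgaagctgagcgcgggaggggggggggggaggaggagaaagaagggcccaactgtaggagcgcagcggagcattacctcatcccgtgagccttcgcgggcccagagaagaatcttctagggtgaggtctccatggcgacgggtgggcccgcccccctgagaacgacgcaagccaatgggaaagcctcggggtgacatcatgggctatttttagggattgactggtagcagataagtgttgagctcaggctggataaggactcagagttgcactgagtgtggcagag
Junb: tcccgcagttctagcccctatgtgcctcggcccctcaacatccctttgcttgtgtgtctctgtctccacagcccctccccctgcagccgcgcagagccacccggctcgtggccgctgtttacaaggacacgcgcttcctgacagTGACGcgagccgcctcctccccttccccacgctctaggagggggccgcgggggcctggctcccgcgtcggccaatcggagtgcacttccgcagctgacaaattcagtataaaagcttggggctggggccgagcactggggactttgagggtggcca

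TGACG occurred 4 times in the Nr4a1 window, 2 times in that of Fos, 1 time in that of Junb and 0 times in that of Jun. Windows were found for 8 of the 10 genes (not for Egr1 and Egr3), 12 windows in all, because Egr2 has 5 overlapping or neighbouring starts. Nr4a2 and Nr4a3 also held 4 copies each and Fosb held 1, and 3 of the 5 Egr2 windows held 2 copies. Among all 32851 mouse windows of 300 bases, 20.8% held TGACG at least once. The CArG box, the site of SRF, was found in 4 of the 5 Egr2 windows and in none of the other 7 windows, against 1.63% of all windows. A CArG box upstream of a window, or with letters other than those searched for, would have been missed. A window without the CArG box therefore does not show that its gene lacks an SRF site. The 3 Egr2 windows with 2 TGACG copies all held the box, but they overlap for most of their length and can share the same one. The EGR site GCGNGGGCG (G or T at N) stood in the windows of Nr4a1 and Fosb, against 3.47% of all windows. The AP-1 site TGANTCA (7.81% of all windows) and the NR4A site AAGGTCA (4.72%) were in none of the 12. All motifs were searched on both strands, and a match describes letters in a window, not binding. The 3 Nr4a genes, with the most TGACG copies, were all below the count filter, as were Fosb with 1 copy and Jun with 0. Fos with 2 copies and Junb with 1 passed it. A relation of copies to level was not tested.

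Gene counts per library ran from 717506 (WT 1-3) to 1801504 (KI 2-2), and 10331 to 11115 genes had a count. CPM below are counts scaled to a common library total after TMM adjustment, and 3 counts, used as the detection floor, correspond to 1.46 to 5.37 CPM. Library WT 1-3 stood apart with the fewest counts and with 43.9% of its reads aligned to more than 1 place, against 26.7% to 34.3% in the others. Pdcd1 ranged over 165.6 to 522.5 CPM among WT libraries and 21.46 to 129.5 CPM among KI libraries, with no overlap (log2 fold change -2.05, SE 0.42, edgeR adjusted p = 0.231). Pdcd1 also fell with the first number (-1.56 for 2 against 1), and within each number KI was lower, by -1.88 and -2.68 (edgeR adjusted p = 0.0400 and 0.00103). The 12 T cell and Tfh markers were all detected and summed to 5809 to 6818 CPM in WT and 5572 to 7579 CPM in KI. The 10 B cell markers, with Pax5 at 0 in every library, summed to 144 to 337 CPM in WT and 116 to 236 CPM in KI. Of the 6 tested B cell markers 5 were on the lower side in KI and Cd22, the most abundant, on the higher side (log2 fold change 0.55), with a median of -1.29, and 0 passed (smallest edgeR adjusted p = 0.487, Ms4a1). Their part in the values of the 10 genes was not tested. The myeloid markers (Itgax and S100a8 at 0) summed to 49.5 to 310 CPM in WT and 39.2 to 107 CPM in KI, and the WT library below the highest one, WT 1-3, was at 118 CPM. In pooled cells, fewer cells of a type and less RNA per cell cannot be told apart.

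Per unit of transcript length, Junb and Egr1 were the most abundant of the 10 genes, followed by Egr2, Fos, Nr4a1 and Jun. Levels between genes are compared in FPKM, the deposited unit scaled by length and depth. Junb, an AP-1 subunit often restraining Jun, averaged 29.5 ± 7.55 FPKM (SD, n = 12). Egr1 averaged 27.0 ± 9.32 FPKM, Egr2 8.86 ± 4.51 FPKM and Fos 3.95 ± 3.24 FPKM (SD, n = 12 each). Nr4a1 ran from 0 to 2.13 FPKM and Jun from 0 to 1.85 FPKM. Each neighbouring pair was compared within libraries by log2(FPKM + 1), with exact sign-flip permutation tests over 4096 assignments adjusted over the 5 pairs. The order, and so the choice of pairs, came from the mean FPKM of these same libraries. Fos had passed the count filter and Nr4a1 had not, so a difference in that pair was likely beforehand. Junb and Egr1 did not differ beyond their spread (mean difference 0.16, SD 0.38, Junb higher in 8 of 12 libraries, exact permutation adjusted p = 0.196). Egr1 was above Egr2 in 12 of 12 libraries, by 1.60 ± 0.77 (SD; exact permutation adjusted p = 0.00244). Egr2 was above Fos in 11 of 12, by 1.02 ± 1.00 (adjusted exact permutation p = 0.0122), and Fos above Nr4a1 in 11 of 12, by 1.43 ± 0.90 (adjusted exact permutation p = 0.00244). Nr4a1 and Jun did not differ beyond their spread (0.34 ± 0.85, 8 of 12, exact permutation adjusted p = 0.196). By mean CPM, Egr1 ranked at the 91.5th percentile of the 14480 genes with any count, Junb at the 85.7th, Egr2 at the 74.1th and Fos at the 52.3th, whereas Nr4a1 lay at the 32.5th and Jun at the 29.4th.

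**Figure D1:**
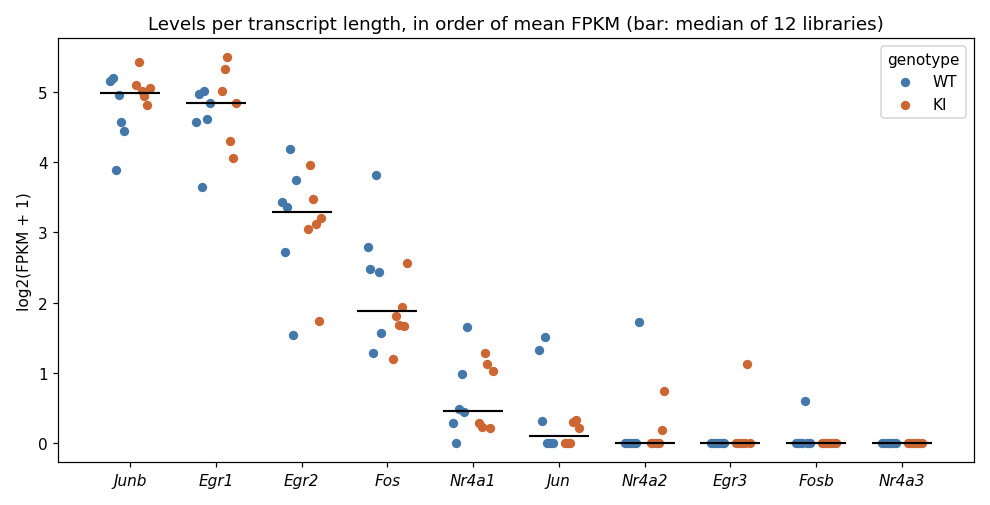
Level of each gene as log2(FPKM + 1), genes ordered by mean FPKM, with 1 point per library coloured by genotype and a bar at the median of 12 libraries. Junb and Egr1 overlap at the top, Egr2 and Fos lie lower, and the other 6 genes are at or close to 0 in most libraries.

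Within the EGR family, Egr1 and Egr2 were detected in every library and Egr3 in 1. Egr1 (chr18:35020861-35024638, plus strand, build NCBIM37, the assembly also called mm9) encodes a zinc-finger activator induced through ERK. At first number 1 it measured 93.5, 145 and 66.2 CPM in WT and 117, 177 and 187 CPM in KI. At first number 2 it measured 130, 95.6 and 115 CPM in WT and 98.5, 58.5 and 121 CPM in KI. The genotypes overlapped at both numbers. Over all libraries the WT mean was 108 ± 28.3 CPM and the KI mean 126 ± 48.4 CPM (SD, 6 libraries each), and the log2 fold change of KI against WT was 0.23 (SE 0.28, edgeR adjusted p = 0.948), with an interval of 2 SE from -0.32 to 0.78. Within first number 1 the value was 0.64 (SE 0.33, edgeR adjusted p = 0.568) and within first number 2 it was -0.29 (SE 0.31, edgeR adjusted p = 0.971), so the sign was not the same. The difference between those 2 values, fitted as an interaction of genotype with first number, was -0.94 (SE 0.46, edgeR unadjusted p = 0.0524, adjusted p = 0.701). Egr1 exons overlap the gene Gm17507 on the other strand, and the use of strand in counting is not stated. Reads in the overlap may have been counted for Egr1 or set aside as ambiguous, and the counts cannot tell which.

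Egr2 (chr10:66998223-67004936, plus strand, NCBIM37) encodes a factor known in T cells for its part in restraining activation and in Tfh differentiation. It ran from 7.31 to 66.5 CPM in WT (median 42.6) and from 8.28 to 61.4 CPM in KI (median 35.9). The lowest library of each genotype, WT 2-2 and KI 2-2, lay well under the others, and the genotypes overlapped over nearly the whole range. The log2 fold change of KI against WT was -0.17 (SE 0.47, edgeR adjusted p = 0.974), with an interval of 2 SE from -1.12 to 0.77. It was 0.18 within first number 1 and -0.62 within first number 2 (SE 0.48 and 0.67, edgeR adjusted p = 0.946 and 0.971). Without WT 2-1 the pooled value was 0.06, and without KI 2-2 it was 0.04. Egr3 (chr14:70477252-70479964, plus strand, NCBIM37), a close relative induced through NFAT, had 4 counts in KI 2-2 and 0 in the other 11 libraries.

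Among the AP-1 subunits, Junb had a coefficient of variation of 27.0% in CPM over the 12 libraries and Fos one of 77.5%. Junb (chr8:87500811-87502617, minus strand, NCBIM37) ran from 44.7 to 96.7 CPM in WT (median 61.0) and from 58.0 to 107 CPM in KI (median 76.9). Its ranges overlapped, with a log2 fold change of 0.29 (SE 0.26, interval of 2 SE from -0.24 to 0.81, edgeR adjusted p = 0.947). It was 0.17 within first number 1 and 0.41 within first number 2 (SE 0.35 and 0.34, edgeR adjusted p = 0.928 and 0.960). Fos (chr12:86814840-86818223, plus strand, NCBIM37), the partner whose dimers with Jun proteins form the classical AP-1, rested on 3 to 56 counts per library. It ran from 5.28 to 35.1 CPM in WT (median 12.98) and from 3.18 to 13.8 CPM in KI (median 6.81). The highest library, WT 2-1 at 35.1 CPM, was followed by WT 1-1 at 16.1 CPM, and 3 WT libraries lay within the KI range. The log2 fold change was -0.96 (SE 0.57, interval of 2 SE from -2.09 to 0.17, edgeR unadjusted p = 0.104, adjusted p = 0.938), and without WT 2-1 it was -0.48. Fos was below the filter within first number 1, where the difference of mean log2(CPM + 1) was -0.90, against -0.50 within first number 2. In the edgeR fit within first number 2 the log2 fold change of Fos was -0.85 (SE 0.78, edgeR adjusted p = 0.97).

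**Figure D2:**
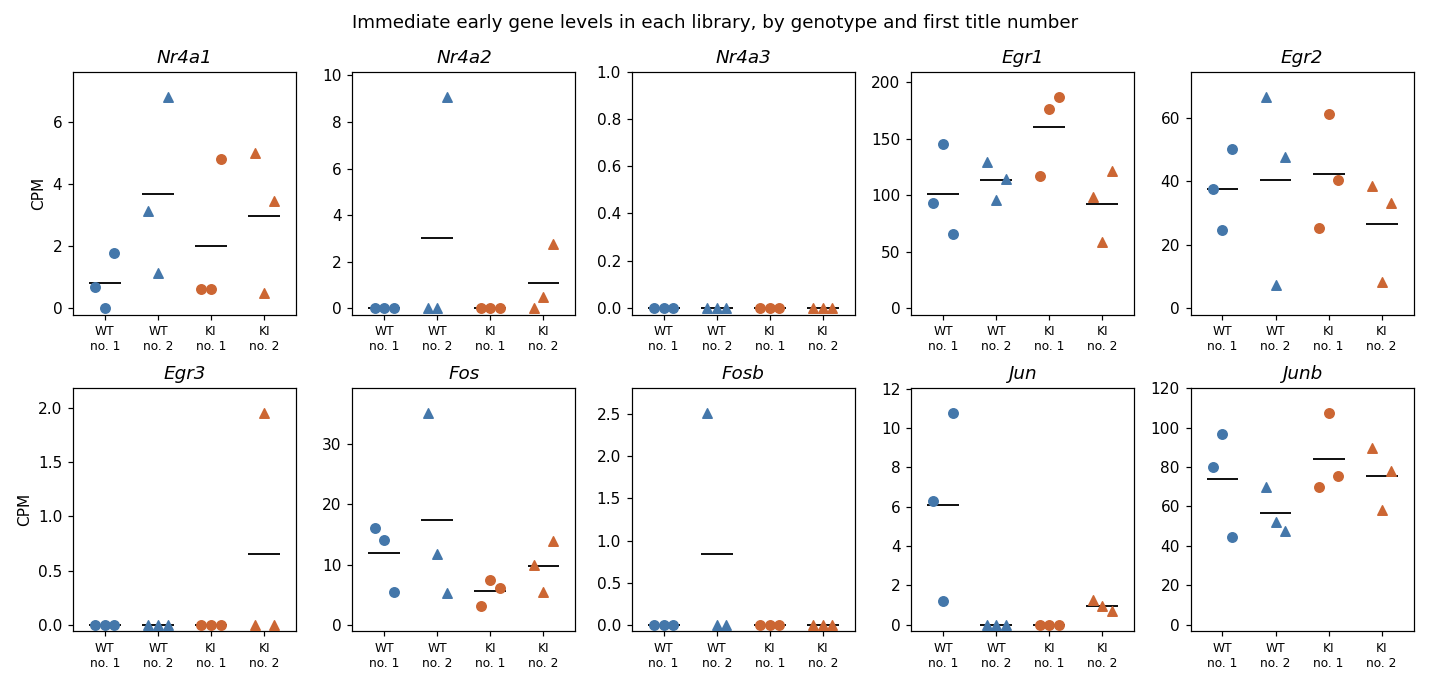
CPM of each of the 10 genes in each library, with separate axes, by genotype (WT, KI) and first title number (no. 1, no. 2). Points are single libraries and bars are means of 3 libraries. The genotypes overlap for Egr1, Egr2, Fos and Junb, and counts of Nr4a2, Egr3 and Fosb come from 1 to 3 libraries.

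Of the 4 tested genes, 0 changed between KI and WT (edgeR, 0 at an unadjusted p under 0.05, and 0 with DESeq2 and with limma-voom). Across all 7542 genes 2 changed, or 0.0265%, and a count of 0 among 4 is near that background. In the fit blocked by first title number, 4 genes changed (0.053%), among them 0 of the 4. The median log2 fold change of the 4 was 0.03 and the median size 0.259, beside 0.02 and 0.276 over all genes tested. Over all 12 libraries the intervals of 2 SE of Egr1 and Junb end below a log2 difference of 1, that is below a doubling or halving, whereas those of Egr2 and Fos reach past it on the lower side. Within first number 1 the Egr1 interval reaches 1.29, and within first number 2 the Junb interval reaches 1.09. Without WT 1-3, the library with the fewest counts, the log2 fold changes of KI against WT were 0.12 for Egr1, -0.11 for Egr2, -1.12 for Fos and 0.20 for Junb, and 0 of the 4 changed. In the interaction fit 0 of the 4 passed, with 0% of all genes called by edgeR and 544 genes at an unadjusted p under 0.05.

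**Figure D3:**
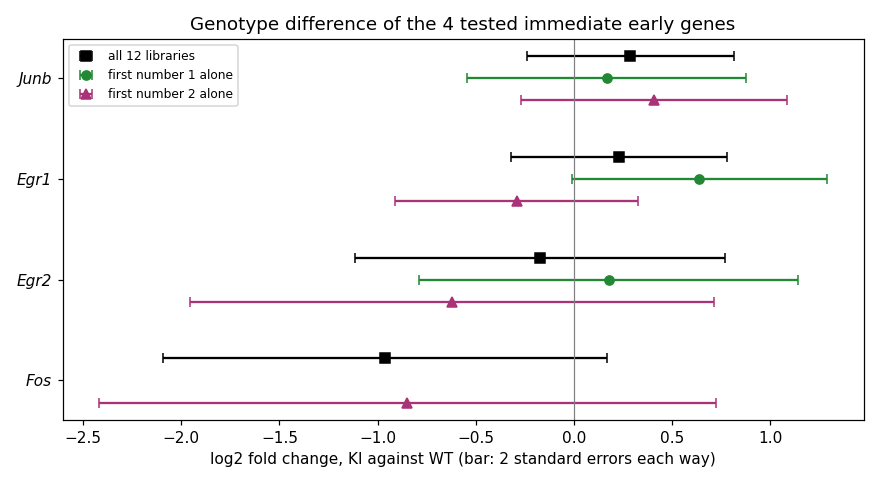
Log2 fold change of KI against WT for Junb, Egr1, Egr2 and Fos over all 12 libraries and within each first title number, with bars of 2 standard errors each way. Every bar crosses 0, Egr1 and Egr2 have opposite signs within the 2 first numbers, and Fos was not fitted within first number 1.

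Nr4a1, Nr4a2 and Nr4a3 report recent receptor signalling in T cells, and all were scarce here. Nr4a1 (chr15:101097277-101105223, plus strand, NCBIM37), which encodes Nur77, had 1, 0, 1, 5, 2 and 9 counts in WT 1-1 to 2-3 and 1, 1, 7, 4, 1 and 5 counts in KI 1-1 to 2-3. The totals were 18 in WT and 19 in KI, a depth-scaled ratio of 0.909 (95% interval 0.452 to 1.84, counting error only), and the exact permutation test on log2(CPM + 1) gave p = 0.794. Nr4a2 (chr2:56959241-56976414, minus strand, NCBIM37) had 12 counts in WT 2-3, 4 in KI 2-3, 1 in KI 2-2 and 0 in the other 9 libraries. All 17 of its counts thus came from first number 2, of which 12 were in 1 library. The exact permutation p of Nr4a2 between first numbers was 0.182, the smallest that counts in 3 libraries can give. In edgeR with no filter the same comparison had an adjusted p of 0.0822 over all genes. Nr4a3 (chr4:48058025-48099319, plus strand, NCBIM37) had 0 counts in all 12 libraries, which allows a level of up to 0.184 CPM over their pooled counts. Between genotypes the exact permutation p of Nr4a2 was 1.

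Jun and Fosb, the remaining AP-1 subunits, were also close to the floor. Fosb (chr7:19888070-19895394, minus strand, NCBIM37), which forms AP-1 dimers as Fos does, had 4 counts in WT 2-1, the library with the highest Fos, and 0 elsewhere. Jun (chr4:94715725-94718913, minus strand, NCBIM37), the founding AP-1 subunit, had 9, 1 and 6 counts in WT and 0, 0 and 0 in KI at first number 1. At first number 2 it had 0, 0 and 0 counts in WT and 1, 2 and 1 in KI. The genotypes thus did not overlap at either number, in opposite directions, but how many of all genes do the same was not counted. With 3 libraries against 3, an exact permutation p can be no smaller than 0.1. The KI counts at first number 2 and the count of WT 1-2 at first number 1 were below the floor of 3. KI minus WT in mean log2(CPM + 1) came to -2.51 for first number 1 and 0.97 for first number 2, a difference of 3.48 (exact permutation within first numbers p = 0.005, the smallest that 400 assignments can give, adjusted over no other gene; 9 genes were tested this way). In edgeR with no filter the same interaction had an adjusted p of 0.189 over all genes. Pooled over first numbers Jun had 16 counts in WT and 4 in KI (exact permutation p = 0.349). WT 1-1 and WT 1-3, with 9 and 6 Jun counts, had the highest myeloid marker sums of the 12 libraries (118 and 310 CPM). The sum of WT 1-2, with 1 Jun count, was 49.5 CPM. WT 1-3 also had the fewest gene counts. The part of myeloid cells in the Jun counts was not tested. Jun exons overlap BC042782 on the other strand, and reads in that overlap may likewise have been counted for Jun or set aside as ambiguous. For Egr3 and Fosb, each with counts in 1 library, a permutation test between genotypes can give no p other than 1.

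The 4 tested genes were also compared between the first title numbers, which both genotypes share. Between first number 2 and 1, with genotype as a covariate, 1208 of 7542 genes changed (16%), 639 higher (8.47%) and 569 lower (7.54%) at first number 2. Of Egr1, Egr2, Fos and Junb 0 changed, with 0 at an unadjusted p under 0.05 and 0 by DESeq2 and by limma-voom. The log2 fold changes were -0.33 for Egr1 (SE 0.25), -0.29 for Egr2 (SE 0.46), 0.64 for Fos (SE 0.56) and -0.28 for Junb (SE 0.24), with edgeR adjusted p between 0.408 and 0.712. In KI alone Egr1 was at -0.79 (SE 0.31, edgeR adjusted p = 0.144), and in WT alone at 0.12 (SE 0.32, edgeR adjusted p = 0.865). Without WT 2-1 the Fos value was 0.22. Markers of cytotoxic T and NK cells moved with the first number: their sum ran from 48.4 to 211 CPM for first number 1 and from 284 to 713 CPM for first number 2, 4 of 4 tested markers rose, and Ncr1 was at 0 throughout. Their part in the values of the 10 genes was not tested.

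Whether the 4 tested genes varied together from library to library was asked within each first number. Over the 6 libraries of each number, 12 correlations of log2 CPM between them were computed, and 0 passed after adjustment. Egr1 and Junb had Pearson's r = 0.79 at first number 1 (exact permutation p = 0.0583, adjusted p = 0.350; Spearman's rho 0.54, exact permutation p = 0.297; r 0.80 without the 2 most distant libraries) and r = 0.22 at first number 2. Egr1 and Egr2 had r = 0.78 at first number 2 (exact permutation p = 0.0431, adjusted p = 0.350; rho 0.77, exact permutation p = 0.103; r 0.62 without the 2 most distant libraries) and r = -0.02 at first number 1. The genes whose log2 CPM over the 12 libraries, after the mean of each first number was removed, was most like the mean of the 4 were Dnm2 (Pearson's r 0.94), Plekho1 (0.89), Klhl18 (0.89), Mrpl17 (0.86) and Wdtc1 (0.86). These are the highest of 7538 genes ranked and carry no test.

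The rest of the pathway was followed in 5 lists of 84 genes, 49 of which were tested, and 0 of the 49 changed between KI and WT by edgeR, DESeq2 or limma-voom (background 0.0265%). By edgeR 5 of the 49 had an unadjusted p under 0.05, beside 407 of all 7542 genes (5.40%), each with an adjusted p of 0.914, and they were picked out after their values were seen. Btg1, an antiproliferative gene, averaged 952 ± 272 CPM for WT libraries and 583 ± 143 CPM (SD) for KI libraries (log2 fold change -0.71, SE 0.21). Within first number 1 Btg1 was at -1.26 and within first number 2 at -0.16 (edgeR adjusted p = 0.0682 and 0.975, interaction adjusted p = 0.333). Tnfrsf18, the costimulatory receptor GITR, was at 104 ± 21.0 and 172 ± 43.9 CPM (0.72, SE 0.23), and the other 3 were Nfatc1 (0.46), Dusp2 (0.84) and Ier2 (0.74). The log2 fold changes of the 49 were positive in 24 and negative in 25, with a median of -0.01 and a median size of 0.277, against 0.276 over all genes. Several inducible genes were at 0 in every library, namely the AP-1 and EGR relatives Fosl1, Egr4, Atf3 and Batf3, the early genes Ier3 and Cyr61, and the cytokines Ccl3, Ccl4 and Csf2.

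Between first numbers, 12 of the 49 list genes changed, 9 higher and 3 lower at first number 2, beside 16% of all genes tested. Of the feedback regulators, which end the response, 4 of 11 tested passed as higher and 0 as lower, beside 8.47% and 7.54% of all genes. The list was mixed in sign, with 6 positive and 5 negative log2 fold changes. The lowest was Rcan1 (-1.38, edgeR adjusted p = 0.207). Zfp36l2, which promotes mRNA decay, measured 106 ± 26.5 CPM at first number 1 and 289 ± 95.9 CPM at first number 2 (log2 fold change 1.48, edgeR adjusted p = 0.000137). Cblb, a ubiquitin ligase that restrains receptor signalling, rose by 1.24, Dusp2, a phosphatase acting on MAP kinases, by 0.89, and Zfp36l1, related to Zfp36l2, by 0.80. Of 10 upstream factors Creb1 (1.41) and its relative Atf1 (1.26) rose and Crtc3, a CREB coactivator, fell (-0.88). Of 13 other early genes Mcl1, a survival factor, rose by 0.76 and Klf10 by 1.35, while Ier2 fell (-0.80). Batf, an AP-1 factor needed for Tfh cells, fell from 112 ± 46.2 to 52.6 ± 16.5 CPM (-1.12, edgeR adjusted p = 0.00878), the other tested AP-1 relative, Jund, was at 0.14 (adjusted p = 0.782), and of 13 activation genes Ctla4, an inhibitory receptor, rose by 1.08. Without WT 2-3 the count was 7, and without WT 1-2 or KI 2-2 it was 8 each. With limma on log2(FPKM + 1) 5 of the 12 passed (Zfp36l2, Cblb, Atf1, Creb1 and Ctla4), in WT libraries alone 2 (Zfp36l2 and Mcl1) and in KI libraries alone 3 (Zfp36l2, Batf and Ctla4). In each of these 3 analyses all 12 had the sign given here. Of 23 alternatives, Zfp36l2 kept its call in 23, Dusp2 and Ier2 in 14 each, Klf10 in 9 and Zfp36l1 in 7. The others of the 12 kept theirs in 18 to 21. The Tfh markers Icos and Sh2d1a rose and Cxcr5 and Tox2 fell, and of 9 tested heat shock genes Hspa5 and Dnaja1 rose and Hsp90ab1, Hspe1 and Hspa8 fell. The heat shock genes summed to 5048 to 6118 CPM at first number 1 and 3921 to 5069 CPM at first number 2, with Hspa1a, Hspa1b and Hspb1 at 0, and 0 of 9 changed between genotypes. Their part, and that of the cytotoxic markers, in the 12 changes was not tested.

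**Figure D4:**
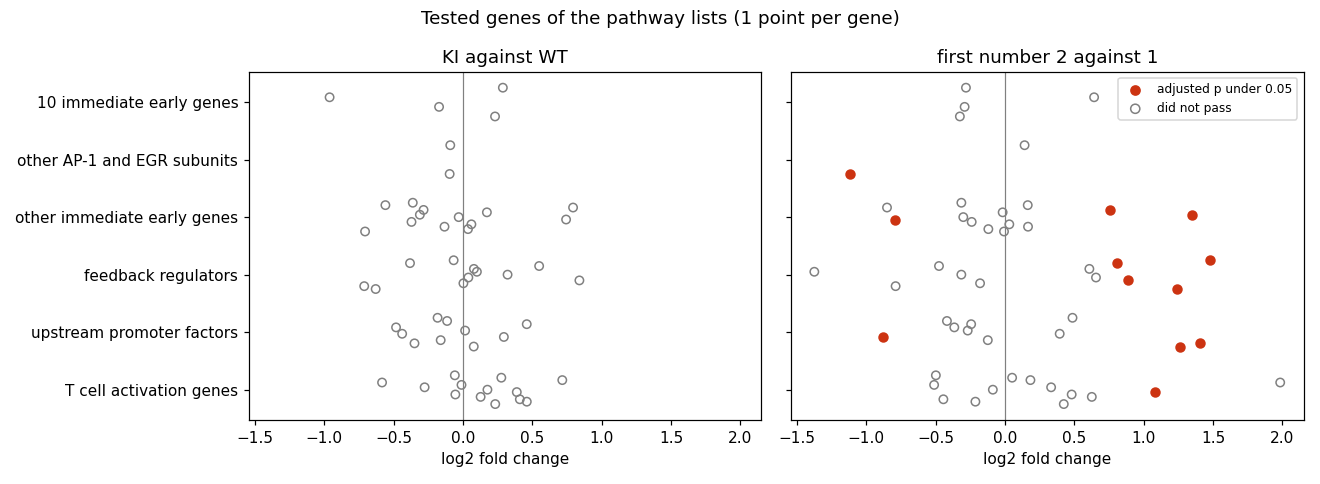
Log2 fold changes of the tested genes in each list, 1 point per gene, for KI against WT (left) and first number 2 against 1 (right), with filled points for an edgeR adjusted p under 0.05. No point is filled on the left, and 12 are filled on the right, none of them among the 10 immediate early genes.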

How the data were processed

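Raw read counts per gene symbol and FPKM values were deposited by the authors for 12 libraries. The submitters' processing notes name CASAVA, TopHat2, Cufflinks, HTSeq, DESeq2 and build mm9, without versions. The names of the 5 summary entries of the count table are those HTSeq writes, and these entries were left out of library totals. FPKM were scaled by length and depth by the authors, and 27 repeated names were summed.

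Counts were fitted in R 4.3.3 with edgeR 4.0.16 (filterByExpr, TMM, quasi-likelihood F test, Benjamini-Hochberg adjustment over all tested genes, threshold 0.05), and standard errors were taken from the F statistic. Fold changes are on the log2 scale with edgeR's default prior count, and log2 CPM used a prior count of 2. Genes below the filter had two-sided exact permutation tests on log2(CPM + 1). Alternatives used DESeq2 1.42.0, limma 3.58.1, other scalings, filters, pseudocounts, blocks and left-out libraries. The scripts were tested on simulated data. Figures used matplotlib 3.10.9.

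Named were the 10 genes, Pdcd1, up to 5 passing genes per list and direction, up to 2 per list where none passed (Cd22 was added after its value was seen), and the 5 most similar genes. The genes and lists were chosen with earlier results of these data known. Cd79b, Ms4a1 and Cst3, named by this rule from lists without a passing gene, had log2 fold changes of KI against WT of -1.36, -2.04 and -0.27 (edgeR adjusted p = 0.914, 0.487 and 0.948). Those of the tested cytotoxic markers for first number 2 against 1 were 2.09 (Nkg7), 2.98 (Gzmk), 1.78 (Klrb1c) and 1.57 (Cd8b1). Over 30 same-genotype pairs, the chi-square per degree of freedom was 8.58 to 37.0, more than sampling noise for each pair. Amplified reads are not independent molecules, and intervals and floors cover counting error only.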

Additional observations from a re-analysis of the deposited data

Results flagged for a closer look

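Among 16 sets of 6 libraries checked, 5 held a library far from the other 5 of its genotype, where chance flags about 1 set in 20. That rate does not apply to Nr4a2 in WT, Egr3 in KI and Fosb in WT, since a set with counts in 1 library is always flagged. It need not hold for Nr4a2 in KI either, where only 2 libraries had counts (4 in KI 2-3 and 1 in KI 2-2). Fos in WT 2-1 was at 35.1 CPM (56 counts), and the next library was at 16.1 CPM. Nr4a2 was at 9.06 CPM (12 counts) in WT 2-3 and at 2.77 CPM (4 counts) in KI 2-3. Egr3 was at 1.95 CPM in KI 2-2 and Fosb at 2.51 CPM in WT 2-1, with 4 counts each and 0 in the other libraries of their genotype. The genotype difference of Jun had opposite signs at the 2 first numbers, with an interaction of 3.48 in log2(CPM + 1) (exact permutation p = 0.005, unadjusted and the smallest possible; 9 genes were tested this way). It rested on 20 counts in all, 4 of the 6 libraries with a count were below the floor of 3, and the edgeR interaction with no filter had an adjusted p of 0.189. The libraries with the most Jun counts, WT 1-1 and WT 1-3, also had the highest myeloid marker sums (118 and 310 CPM). The part of myeloid cells was not tested.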

How the results depend on the processing

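Among those of the 10 genes that each alternative tested (4 in most, 3 within first number 1, 2 with a mean of at least 50 counts and 9 with no filter), the count of changed genes was 0 under 24 alternatives for KI against WT, 23 for first number 2 against 1 and all 3 for the interaction (these 3 chosen after seeing the data). The list genes changed between genotypes stayed 0 under 24. The replicate block by the first number gave log2 fold changes of 0.18 (Egr1), -0.22 (Egr2), -0.97 (Fos) and 0.29 (Junb), and the block by both numbers 0.16, -0.14, -0.82 and 0.31, with 0 calls under each. Samples with both numbers alike correlated at 0.164 on average (lowest 0.0828), or -0.0049 with first-number means removed, and 2 of 6 correlated best with their own number. WT and KI libraries of the same first number correlated at 0.166 on average, and those of different first numbers at -0.166. These correlations are between values relative to means over libraries, not between whole profiles. The 2 averages mirror each other, so the second is not a separate observation.

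Signs turned for Egr1, KI against WT, within first number 2 (-0.29), for Egr2 within first number 1 (0.18) and with 1 library left out (-0.427 to 0.0596, the highest without WT 2-1, and 0.0386 without KI 2-2), for Egr1 and Egr2 by first number in WT alone (0.12 and 0.09), and for Nr4a2, KI against WT, with a pseudocount of 0.1 (0.15). The 12 list genes changed by first number became 5 and 6 with limma on log2(FPKM + 1) and log2(FPKM + 0.1), 2 in WT alone, 3 in KI alone and 7 to 13 with 1 library left out. The last 3 also had fewer libraries, and the cause of these changes in count was not tested. A mean of at least 50 counts removed Egr2 and Fos. The order of levels kept its calls with a pseudocount of 0.1, also chosen after seeing the data. Depth limits 6 of the 10 genes, which lay near or under 3 counts in most libraries.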
